A study of Mus musculus with 4 samples.

Results

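The genes of collagens, laminins and other extracellular matrix components were followed in mouse thymus, in wild-type mice and in mice lacking Camk2g, which encodes the gamma form of CaMKII, a kinase activated by calcium and calmodulin, after N-methyl-N-nitrosourea (MNU) or vehicle. MNU is an alkylating mutagen that induces T-cell lymphoma in mice. The members were taken by symbol: families of collagens, laminins, fibulins, fibrillins, emilins, thrombospondins, lysyl oxidases, matrix metalloproteinases (MMPs), tissue inhibitors of metalloproteinases (TIMPs), ADAMTS proteases and SPARC proteins, and single genes such as Fn1, Dcn and Hspg2. This gave 47 of the 10598 genes listed, and all 47 passed the filter on low values, which kept 10587. Of these, Col4a3bp matched by its name alone, since it encodes a ceramide transfer protein, which left 46 matrix genes. Members of these families that are not named below were not analysed here.

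The wild-type and the CAMKIIgamma-/- mice were both of strain C57BL/6J. One thymus library was deposited for wild type with vehicle, wild type with MNU, knockout with vehicle and knockout with MNU, and values below are given in that order. MNU mice had received 75 mg/kg once into the peritoneum when they were 4 to 5 weeks old. A treatment time of 6 months is labelled for all 4 groups. The labels do not name the vehicle, the age of the vehicle mice or whether a library held RNA of 1 mouse or of several. With 1 library per group no difference has a replicate check and no test was possible, so that all statements compare these libraries and not the conditions. A gene is called higher or lower when the values differ at least 2-fold on the log2(normalised counts + 10) scale. Where a fold is printed for 1 gene, it is the ratio of its normalised counts without that 10.

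The extracellular matrix is the protein scaffold in which thymocytes, epithelium, vessels and fat lie. Fibrillar collagens form the load-bearing fibres of capsule and septa and are made by mesenchymal cells, whereas collagen IV, laminins, nidogen and perlecan form the thin basement membranes under epithelium and around vessels and fat cells. Proteases of the MMP and ADAMTS families cut and process these proteins, and TIMPs inhibit them. In the thymus, matrix and its receptors guide the movement of thymocytes between cortex and medulla.

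RefSeq windows around the annotated start (build GRCm38.p6) were matched by symbol for 31 of the 47 members. The 150 bases before the start are shown for 4 genes because 3 fibrillar collagen genes, Col27a1, Col1a2 and Col3a1, were higher together in wild type with MNU, while Timp4 was lower with MNU in both genotypes. Capitals mark any of 5 short motifs, each searched on both strands. The GC box is spelled GGGCGG and the E-box, the preferred site of MYC, is spelled CACGTG. The letters TGANTCA stand for the site of AP-1. The TATA box is taken as TATAAA, and the CCAAT box is searched by the letters of its name. Col27a1 lies at chr4:63215262-63215411 on the plus strand, Col1a2 at chr6:4505468-4505617 on the plus strand, Col3a1 at chr1:45311388-45311537 on the plus strand and Timp4 at chr6:115252206-115252355 on the minus strand.
Col27a1: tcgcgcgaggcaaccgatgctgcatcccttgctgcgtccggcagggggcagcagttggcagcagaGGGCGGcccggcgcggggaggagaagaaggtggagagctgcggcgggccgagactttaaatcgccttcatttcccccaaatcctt
Col1a2: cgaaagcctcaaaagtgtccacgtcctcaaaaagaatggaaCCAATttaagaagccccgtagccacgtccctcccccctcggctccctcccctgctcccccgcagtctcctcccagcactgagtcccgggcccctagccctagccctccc
Col3a1: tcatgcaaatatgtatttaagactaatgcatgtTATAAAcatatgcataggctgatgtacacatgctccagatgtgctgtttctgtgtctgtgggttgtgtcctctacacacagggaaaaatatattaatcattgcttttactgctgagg
Timp4: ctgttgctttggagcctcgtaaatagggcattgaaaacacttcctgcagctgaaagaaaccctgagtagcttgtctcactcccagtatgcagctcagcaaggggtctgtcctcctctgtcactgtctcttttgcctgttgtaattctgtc
The 3 collagen stretches each held 1 motif, and not the same one. Col27a1 had a GC box at -85, Col1a2 a CCAAT box at -109 and Col3a1 a TATA box at -117 from the start, and none of the 5 motifs lay in the Timp4 stretch. Over the whole windows of 300 bases, an E-box was found in 2 of the 38 member windows (5.26%), both of Fbln1, against 7.15% of 32851 windows of all genes. The AP-1 motif was found in 5.26% against 7.81%, the CCAAT box in 31.6% against 37.4% and the TATA box in 10.5% against 13.6%. GC boxes were found in 60.5% of the member windows against 35.7%, beside a median GC content of 60.7% against 52.7%, so that the member windows were also the more GC-rich ones. These matches describe letters and not binding.

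Some facts of the whole series touch every result. Normalised counts summed to between 3.29e+07 and 3.48e+07 per library, and the members made up 0.304%, 0.482%, 0.370% and 0.245% of them. Camk2g, the deleted gene, stood at 2749, 3173, 489 and 29.7, so that knockout with vehicle held more of it than knockout with MNU, by 14.6% of the excess of wild type with MNU over knockout with MNU. That library also held a share of other transcripts found mainly in wild type with MNU. The share was read from 41 non-member genes that exceeded both wild type with vehicle and knockout with MNU more than 20-fold in wild type with MNU. Their excess in knockout with vehicle over the mean of those 2 libraries was 15.4% of their excess in wild type with MNU in the median (5th to 95th percentile 13.9% to 18.5%). Counts of members at 2-fold against knockout with vehicle are therefore given as deposited and with that share subtracted. Levels, ratios of 2 genes and counts of listed genes are as deposited unless stated. Where the share comes from was not tested. Of 14 thymocyte markers 1 was higher and 8 were lower with MNU in wild type, with summed levels over the 4 libraries of 539314, 241456, 384683 and 475112. Of 14 thymic epithelial markers 12 were lower in wild type with MNU, with summed levels of 100324, 1520, 103056 and 81463, and Foxn1, the master regulator of thymic epithelium, was listed at 0 there. In that library the label thymus was therefore not borne out by those 12 epithelial markers. The other listed markers, Epcam (1389, 784, 1904 and 1506) and Cldn4 (815, 457, 682 and 593), lay within 2-fold of wild type with vehicle. Thymocyte markers still summed to 241456 there. In bulk tissue, fewer cells of a type and less RNA per cell cannot be told apart.

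In wild type, MNU went with a split within the matrix genes. Genes of fibrillar collagens, perlecan, fibronectin, fibulins and several proteases were higher, and genes of the laminin chain Lamb1, periostin and TIMPs 3 and 4 were lower. Of the 47 members 16 were higher, against 7.14% of all genes, and 7 were lower, against 14.2% of all genes. In percent, 34.0% of the members were higher and 14.9% lower, so that the share of higher members was above the background and that of lower members was near it. The median log2 difference of the members was -0.06, beside -0.01 over all genes. The same shares of all genes, 7.14% higher and 14.2% lower, stand beside every count with MNU in wild type, by role or by list.

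**Figure D1:**
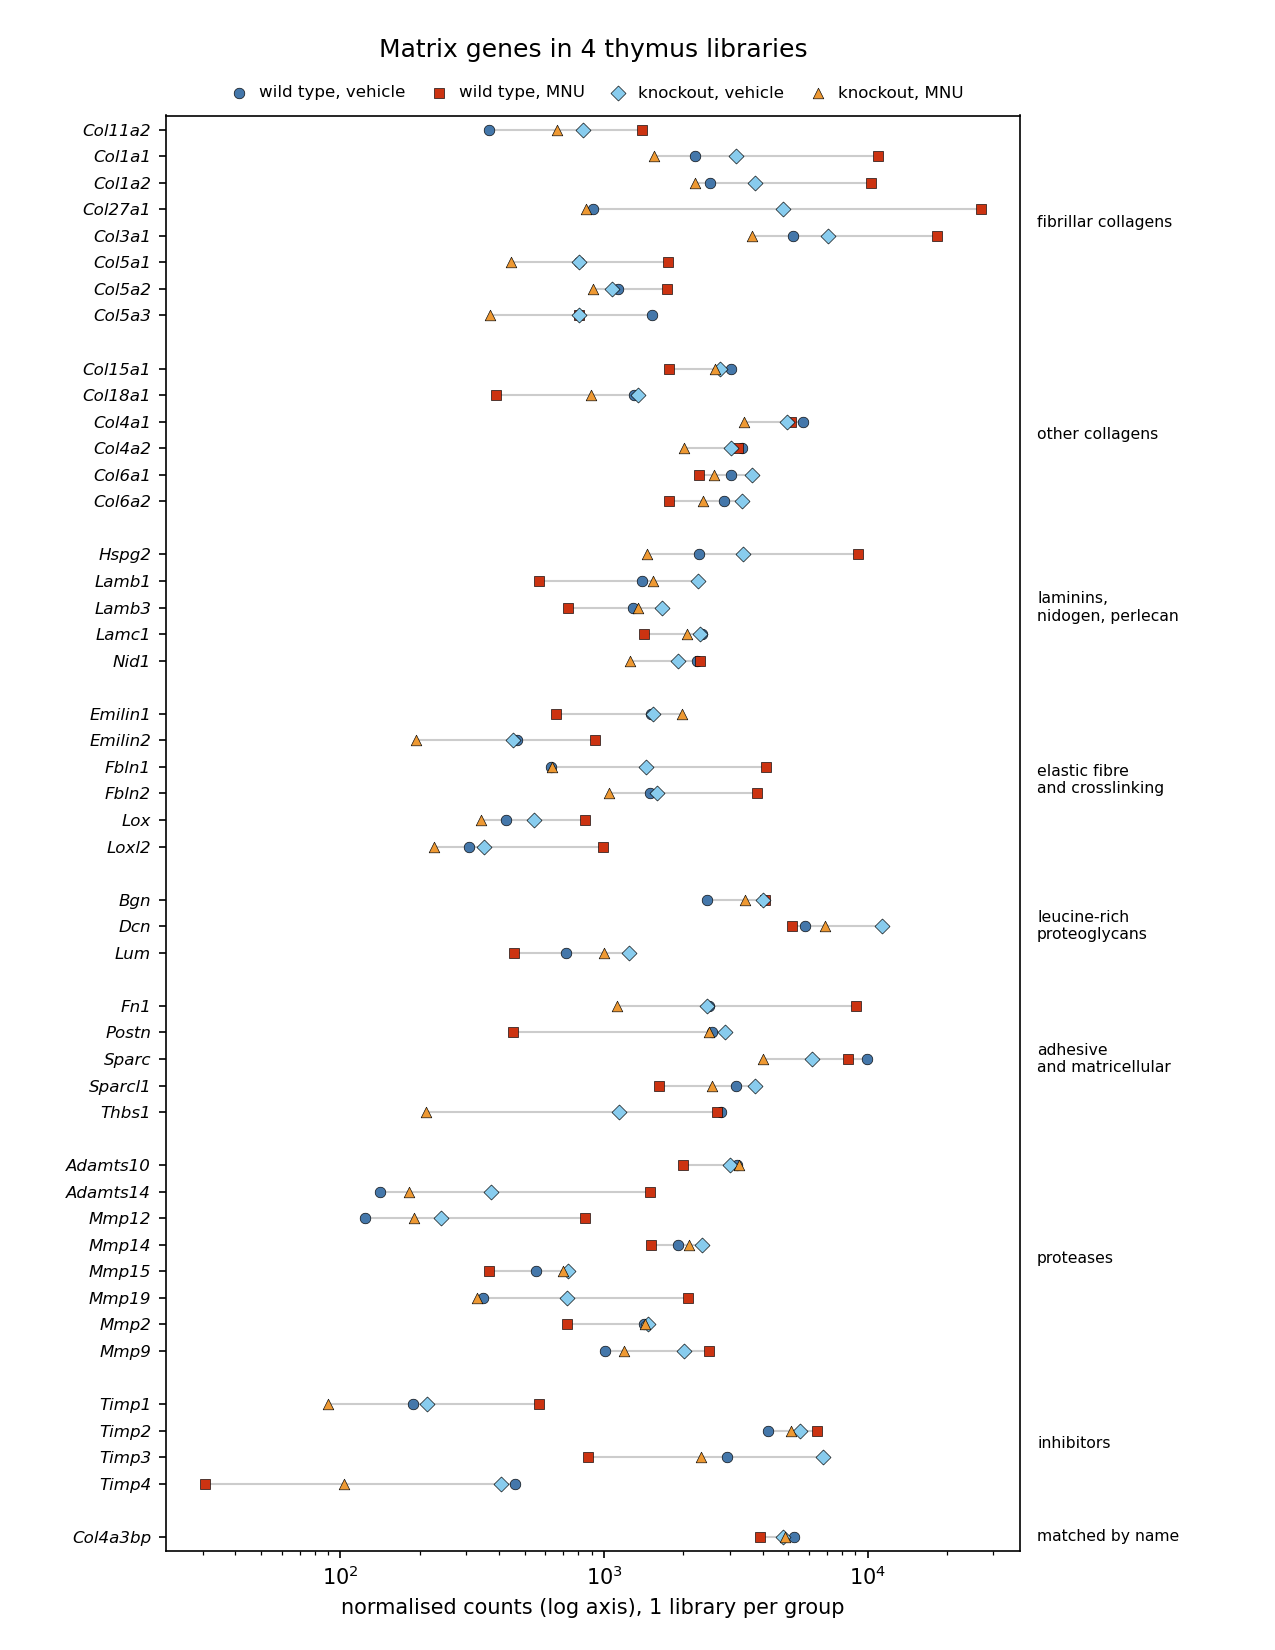
Normalised counts of 46 of the 47 members (log axis) in the 4 thymus libraries, 1 point per library, ordered by role. The wild-type MNU library (red squares) lies far to the right for Col27a1, Col1a1, Fbln1 and Adamts14 and far to the left for Postn and Timp4, while knockout with MNU (orange triangles) is the lowest point for 20 of the 47 genes.

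Among the 8 fibrillar collagen genes 6 were higher with MNU in wild type and none was lower. Col27a1, which encodes a fibrillar collagen known from cartilage, stood at 906, 26981, 4758 and 854 normalised counts. Wild type with MNU was far above the other libraries, 29.8-fold over wild type with vehicle, and knockout with vehicle was the second highest. Col1a1 and Col1a2, the chains of collagen I, stood at 2221, 10968, 3168 and 1542 and at 2519, 10305, 3727 and 2223. Col3a1, the collagen III gene co-expressed with them in fibroblasts, stood at 5227, 18384, 7083 and 3655. For all 3 genes wild type with MNU was highest, by 4.94-fold, 4.09-fold and 3.52-fold over wild type with vehicle, and knockout with MNU was lowest.

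The minor fibrillar chains did not all follow. Col11a2, a chain of cartilage collagen XI, stood at 368, 1395, 833 and 665, highest in wild type with MNU and 3.79-fold over wild type with vehicle. Col5a1, a chain of collagen V that nucleates collagen I fibrils, stood at 806, 1752, 807 and 443 and was 2.17-fold higher, and Col5a2, its partner chain, stood at 1129, 1729, 1071 and 906, within 2-fold of wild type with vehicle. Col5a3, the third collagen V chain, ran the other way, at 1528, 806, 804 and 369, and was highest in wild type with vehicle. Markers of mesenchyme moved beside these collagens in part. Of 8 measured fibroblast markers 3 were higher and 2 lower in wild type with MNU, with summed levels of 38711, 21569, 39867 and 29541. Pdgfrb, a receptor of fibroblasts and pericytes, stood at 771, 4839, 1332 and 634, whereas Gsn stood at 30678, 4697, 30414 and 22296. Gsn made up most of the fibroblast sum outside wild type with MNU. The lower sum in that library therefore follows Gsn and not the 3 higher markers. Of 8 pericyte and smooth muscle markers 2 were higher and 3 lower (summed levels 6515, 6410, 6170 and 4052): Kcnj8, a pericyte potassium channel gene, stood at 222, 1369.6, 322 and 166 and Myh11, smooth muscle myosin, at 1164, 150.5, 1016 and 769. Their part in the collagen differences was not tested.

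The collagens of basement membranes and of beaded filaments lay nearer to their vehicle levels. Col4a1 and Col4a2, the chains of the ubiquitous collagen IV network, stood at 5685, 5139, 4938 and 3401 and at 3338, 3212, 3034 and 2018, lowest in knockout with MNU. Their ratio was 1.70, 1.60, 1.63 and 1.68, a 1.06-fold spread over the 4 libraries. The genes lie head to head on chromosome 8, on opposite strands, with annotated starts 21 bases apart in RefSeq, so that reads at the very start of one may be counted for the other. Whether the transcripts overlap, and any part of this in the ratio, was not tested. By contrast, the Col1a1 to Col1a2 ratio was 0.882, 1.06, 0.850 and 0.694, a 1.53-fold spread. Col6a1 and Col6a2, chains of the beaded filament collagen VI, stood at 3040.3, 2287, 3648 and 2626 and at 2855, 1760.5, 3345 and 2374, lowest in wild type with MNU but within 2-fold. Col15a1 stood at 3047, 1763, 2762 and 2649.7 and Col18a1, the source of endostatin, at 1305, 388, 1347 and 893. Of these 6 genes Col18a1 alone passed the 2-fold rule in wild type, 3.36-fold lower.

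Per kilobase of annotated exon, the mixture of the 14 collagen genes differed most in wild type with MNU. The summed level per kilobase was 5770.0, 13923, 6970.5 and 4234 normalised counts. Col3a1 was the highest collagen gene per kilobase in the other 3 libraries, and Col27a1 was highest in wild type with MNU. Col27a1 made up 2.06%, 25.5%, 8.97% and 2.65% of the collagen level per kilobase, and Col1a1, Col1a2 and Col3a1 together 30.9%, 50.9%, 35.9% and 31.5%. Col4a1 and Col4a2 together made up 23.9%, 9.16%, 17.5% and 19.5%, lowest where the fibrillar genes were highest. Exon lengths were those of GENCODE M21 and not of the annotation the authors used.

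**Figure D2:**
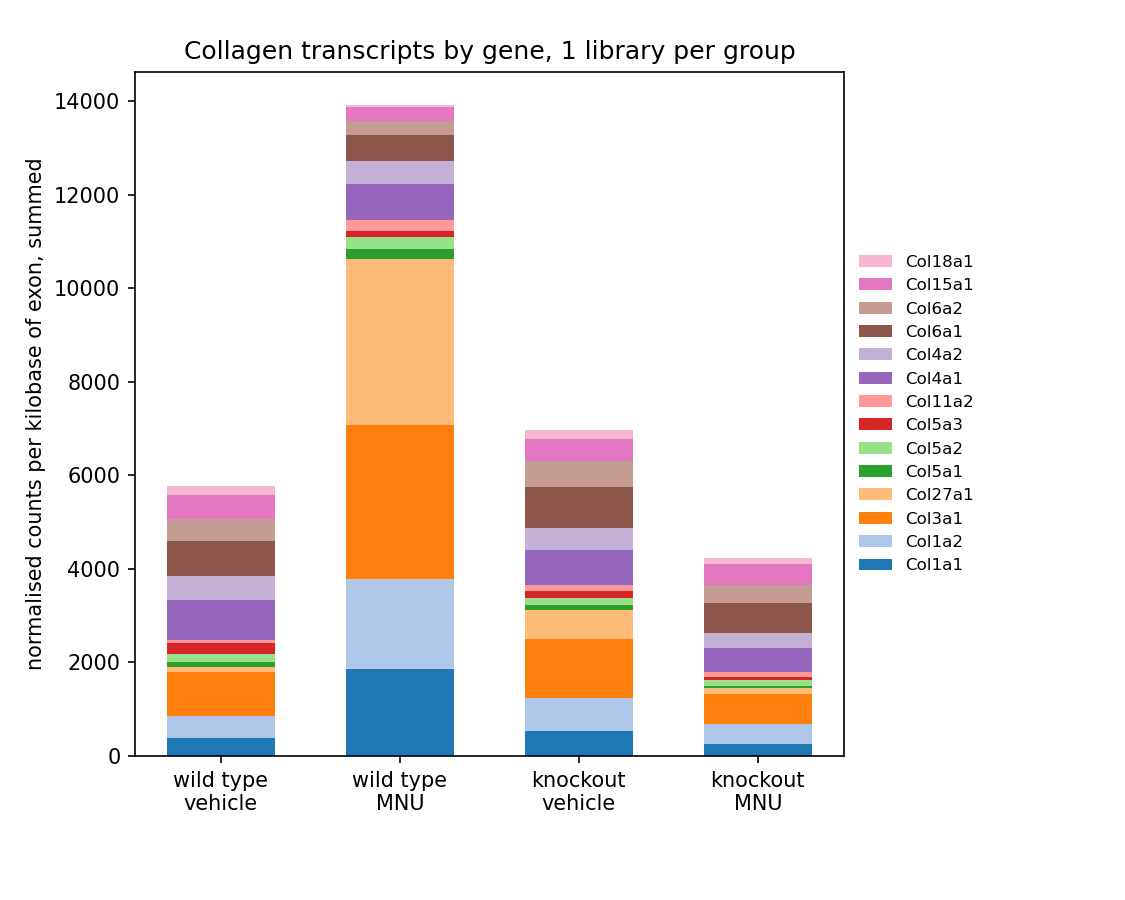
Stacked bars of normalised counts per kilobase of exon for the 14 collagen genes, 1 bar per library. The wild-type MNU bar reaches 13923, and Col27a1, Col3a1, Col1a2 and Col1a1 fill most of it, while the bars of the other libraries reach between 4234 and 6970.5.

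Among laminin genes, the widely expressed chain Lamb1 was lower with MNU in wild type. Lamb1 stood at 1389, 567, 2276 and 1536, lowest in wild type with MNU, 2.45-fold below wild type with vehicle, and highest in knockout with vehicle. Lamc1, its usual partner chain, stood at 2352, 1422, 2309 and 2057, within 2-fold, so that the Lamb1 to Lamc1 ratio was 0.591, 0.399, 0.986 and 0.747. Lamb3, a chain of epithelial laminin, stood at 1287, 733, 1665 and 1350.4, lowest in wild type with MNU and within 2-fold of wild type with vehicle. The epithelial markers Krt5 (10374, 7.33, 17368 and 10977) and Itgb4, a laminin-binding integrin chain (1262, 202, 2025 and 1411), were low in the same library. Their part in the laminin differences was not tested.

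Hspg2, which encodes perlecan, the large heparan sulphate proteoglycan of basement membranes, stood at 2299.6, 9237, 3368 and 1451. It was 4.02-fold higher with MNU in wild type, and knockout with MNU was the lowest library. Nid1, the link between laminin and collagen IV, stood at 2255, 2324, 1911 and 1259.5 and did not differ by 2-fold in wild type. Of the 7 endothelial markers measured 1 was lower with MNU in wild type and none was higher, with summed levels of 9581, 10533, 9328 and 8552.

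Of the 6 elastic fibre and crosslinking genes 3 were higher and 1 lower with MNU in wild type. Fbln1, a fibulin of basement membranes and elastic fibres, stood at 632, 4136, 1441 and 634, and Fbln2 at 1495, 3801, 1585 and 1047. Wild type with MNU was highest for both, by 6.55-fold and 2.54-fold. Loxl2, an amine oxidase that crosslinks collagen, stood at 306, 989, 349 and 226 and was 3.23-fold higher. Its relative Lox, at 423, 845, 541 and 342, and Emilin2, at 468, 926, 450.3 and 194, lay just under the threshold in wild type, with log2 differences of 0.98 and 0.97. Emilin1, an elastin-binding glycoprotein, went the other way at 1506, 655, 1533 and 1972, lowest in wild type with MNU and highest in knockout with MNU.

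Small leucine-rich proteoglycans, which bind collagen fibrils and set their spacing, stayed within 2-fold in wild type. Dcn, which encodes decorin, stood at 5781, 5149, 11363 and 6904. Lum, which encodes lumican, stood at 717, 457, 1245 and 1000.0. Bgn, which encodes biglycan, stood at 2457, 4099, 4006 and 3437. Dcn and Lum were thus lowest in the library in which Col1a1 and Col3a1 were highest, while Bgn was highest there. The Dcn to Bgn ratio was 2.35, 1.26, 2.84 and 2.01.

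Adhesive and matricellular genes showed no common direction. Fn1, which encodes fibronectin, stood at 2509, 9043, 2461 and 1123, 3.60-fold higher with MNU in wild type and lowest in knockout with MNU. Postn, which encodes periostin, a collagen-binding protein of fibroblasts, stood at 2564, 452, 2887 and 2509, low in wild type with MNU alone and 5.68-fold lower there than with vehicle. Sparc, a collagen-binding protein of stroma and fat, stood at 9969, 8435, 6135 and 4017, and its relative Sparcl1 at 3161, 1615, 3733 and 2569. The wild-type libraries were the 2 highest for Sparc and held the highest ratios of Sparc to Sparcl1, 3.15 and 5.22, against 1.64 and 1.56 in the knockout libraries.

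Proteases were higher or within 2-fold with MNU in wild type, 4 of 8 being higher and none lower. Adamts14, an enzyme that removes the N-terminal propeptide of fibrillar procollagens, stood at 141, 1502, 374 and 183, 10.7-fold higher. Mmp12, the macrophage elastase, stood at 124, 849.9, 240.1 and 191. Mmp19, a protease that cuts basement membrane components, stood at 349, 2091, 722 and 330.0, and Mmp9, the gelatinase of neutrophils and macrophages, at 1010.5, 2509.9, 2016 and 1187. All 4 were highest in wild type with MNU, and the 3 MMPs were 6.86-fold, 5.99-fold and 2.48-fold higher. Myeloid markers were higher in the same library: 5 of 11 macrophage markers and 4 of 5 neutrophil markers, none of either being lower, with summed levels of 27108, 52393, 43762 and 46776 and of 606, 2292, 596 and 2046. Their part in the protease differences was not tested. Mmp2, the gelatinase of stromal cells, stood at 1424, 727, 1475 and 1426, and Mmp14, the membrane protease that activates it, at 1904, 1502, 2357 and 2111. Mmp15, at 553, 366, 733 and 702, and Adamts10, a protease of microfibrils, at 3201, 1993, 3002 and 3252, were likewise lowest in wild type with MNU and within 2-fold of wild type with vehicle.

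The 4 TIMP genes went in different directions. Timp1 stood at 188, 567, 214 and 89.9 and was 3.01-fold higher with MNU in wild type. Timp2, the partner of MMP14 in activating MMP2, stood at 4179.7, 6458, 5564 and 5125, within 2-fold. Timp3, the inhibitor that stays bound to matrix, stood at 2918, 873, 6779 and 2330.0, lowest in wild type with MNU and highest in knockout with vehicle. Timp4 stood at 460.1, 30.5, 406 and 103, high in both vehicle libraries and low in both MNU libraries, 15.1-fold lower in wild type and 3.93-fold lower in knockout. The library kit is not described as strand-specific, so that reads of a gene on the other strand at the same place could not be told apart. The Mmp9 to Timp1 ratio was 5.36, 4.42, 9.44 and 13.2, higher in the knockout libraries, and the Mmp2 to Timp2 ratio was 0.341, 0.113, 0.265 and 0.278, lowest in wild type with MNU.

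**Figure D3:**
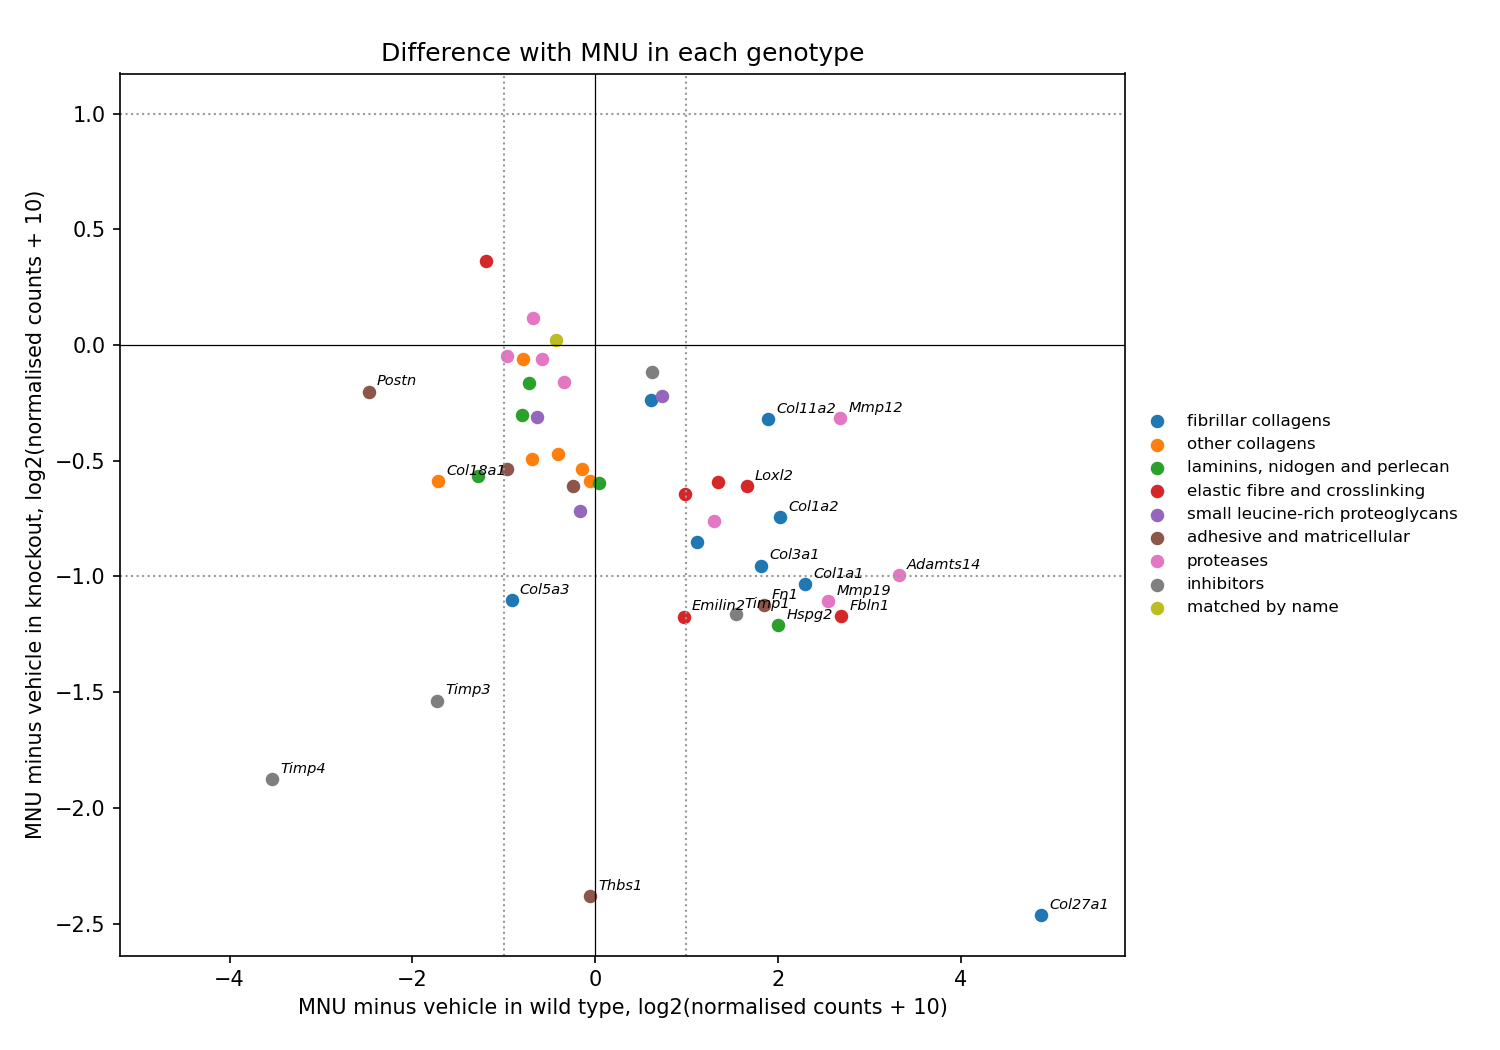
Difference between MNU and vehicle on the log2(normalised counts + 10) scale in wild type (horizontal) and knockout (vertical) for 46 of the 47 members, coloured by role, with dotted lines at 2-fold. No gene lies above the upper line in the knockout, Timp3 and Timp4 are past 2-fold lower in both genotypes, and Col27a1 lies at the lower right, at 4.88 and -2.46.

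In knockout, no matrix gene was higher with MNU and 12 of 47 were lower, against 0.331% of all genes higher and 2.95% lower. The median log2 difference of the members was -0.59, beside 0.01 over all genes. With the share of the wild-type MNU profile subtracted from the vehicle library, 4 of 47 were lower, against 1.87% of all genes, and 0 were higher, against 0.397%. The 4 were Col5a3, Thbs1, Timp3 and Timp4, and the median was then -0.47, beside 0.04 over all genes. Against wild type with vehicle in place of knockout with vehicle, 6 were lower, against 1.11% of all genes, and 0 were higher, against 1.57%. The 6 were Col5a3, Emilin2, Fn1, Sparc, Thbs1 and Timp4. Col5a3, Thbs1 and Timp4 were thus lower in knockout with MNU by each of the 3 readings.

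Thbs1, which encodes thrombospondin-1, an adhesive glycoprotein of platelets and stroma that activates latent TGF-beta, stood at 2788, 2677, 1138 and 210.5. The wild-type libraries were alike and both knockout libraries were below them, by 2.45-fold with vehicle and 12.7-fold with MNU. Knockout with MNU was 5.40-fold below knockout with vehicle as deposited and 4.08-fold below it with the share subtracted. Pf4, the single platelet marker measured of 8 listed, stood at 155, 951, 269.8 and 95.0, lowest in knockout with MNU as well but highest in wild type with MNU. Genes known to respond to TGF-beta or to mechanical load did not share 1 pattern. Ctgf, at 304, 368, 445 and 98.1, was lowest in knockout with MNU, and Cyr61, at 1039, 150.5, 407 and 132, was low in both MNU libraries. Tgfbi, which TGF-beta induces, was highest in knockout with MNU, at 1455, 1006, 2087 and 2444.

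Fat markers were compared with genes that were low in knockout with MNU, and not all of these genes followed them. Of 13 adipocyte markers 11 were lower with MNU in knockout and 12 in wild type, with summed levels of 83246, 17442, 77927 and 29971, and Lep was listed at 0 in wild type with MNU. Timp4 and Cd36, a receptor of thrombospondin and fatty acids (10207, 2276, 8245 and 3285), were low in both MNU libraries. Col5a3 was lowest in knockout with MNU, but its wild-type MNU level of 806 lay beside the 804 of knockout with vehicle. Sparc and Thbs1 did not follow the fat markers in wild type, where they lay within 2-fold while the summed fat markers were lowest. The part of the fat markers in these differences was not tested.

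By its form, the subtraction lowers the knockout vehicle level of a gene only where the wild-type MNU level exceeds it. Lower calls in knockout could thus be lost only for genes with the larger value in the wild-type MNU library. That the lost calls were those of such genes follows from the subtraction and is not a finding. As deposited, Col1a1, Col27a1, Emilin2, Fbln1, Fn1, Hspg2, Mmp19 and Timp1 were lower with MNU in knockout, with log2 differences between -2.46 and -1.03. With the share subtracted they lay between -0.87 and 0.24, all within 2-fold. Of these genes, Emilin2 and Fn1 were still lower in knockout with MNU against wild type with vehicle, at -1.23 and -1.15. Col27a1 in knockout with vehicle was 4758 as deposited and 721 after subtraction, beside 906 in wild type with vehicle and 854 in knockout with MNU. Its excess over the mean of those 2 libraries was 14.9% of its excess in wild type with MNU. Over the 16 members higher with MNU in wild type this share ran from 8.93% for Fn1 to 65.0% for Mmp9, with a median of 16.6%. The share lay within the 13.9% to 18.5% of the 41 other genes for 6 members, below it for 4 and above it for 6. The 41 genes had to exceed both other libraries more than 20-fold, the members only wild type with vehicle by 2-fold. For members with small differences the share thus depends more on the levels of those 2 libraries. A share outside the range is therefore not read as a departure from it. Col1a1, at 14.2%, lay within it, whereas Hspg2, at 20.3%, Mmp19, at 21.9%, Fbln1, at 23.1%, and Col11a2, at 36.0%, lay above it.

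With vehicle, the knockout thymus held more Timp3 and less Thbs1 transcript than the wild-type thymus, as deposited and with the share subtracted. For both genes the subtraction could only widen the difference, so that it is no check on these calls. As deposited 6 of 47 members were higher, against 2.59% of all genes, and 1 was lower, against 0.359% of all genes. The higher ones were Adamts14, Col11a2, Col27a1, Fbln1, Mmp19 and Timp3. With the share subtracted 2 were higher, against 1.72% of all genes, and 1 lower, against 0.501% of all genes: Timp3 and Dcn were higher, and Thbs1 was lower. The median log2 difference was 0.24 as deposited and 0.07 with the share subtracted, beside -0.001 and -0.03 over all genes.

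Timp3 was the gene furthest above wild type after subtraction, at 7852 against 2918, and as deposited it was 2.32-fold higher. It was back at 2330.0 in knockout with MNU, 2.91-fold lower than in knockout with vehicle. Dcn stood at 12492 after subtraction and at 11363 as deposited, against 5781 in wild type with vehicle. Its log2 difference was 0.97 as deposited and 1.11 after subtraction, so that its call turned on the subtraction. The other proteoglycans Lum and Bgn had log2 differences of 0.79 and 0.70 as deposited and 0.94 and 0.70 after subtraction, the same side as Dcn and within 2-fold. Col11a2 was close to the threshold on both readings, at 1.16 and 0.97, as was Mmp9, at 0.99 and 0.92. Fn1 lay at -0.03 and -0.98. As deposited, 14 of the 47 members were highest in knockout with vehicle, against 11% of all genes, and 0 were lowest there, against 15.2% of all genes. These ranks were not counted with the share subtracted, where Col27a1, at 721, was lowest in knockout with vehicle.

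**Figure D4:**
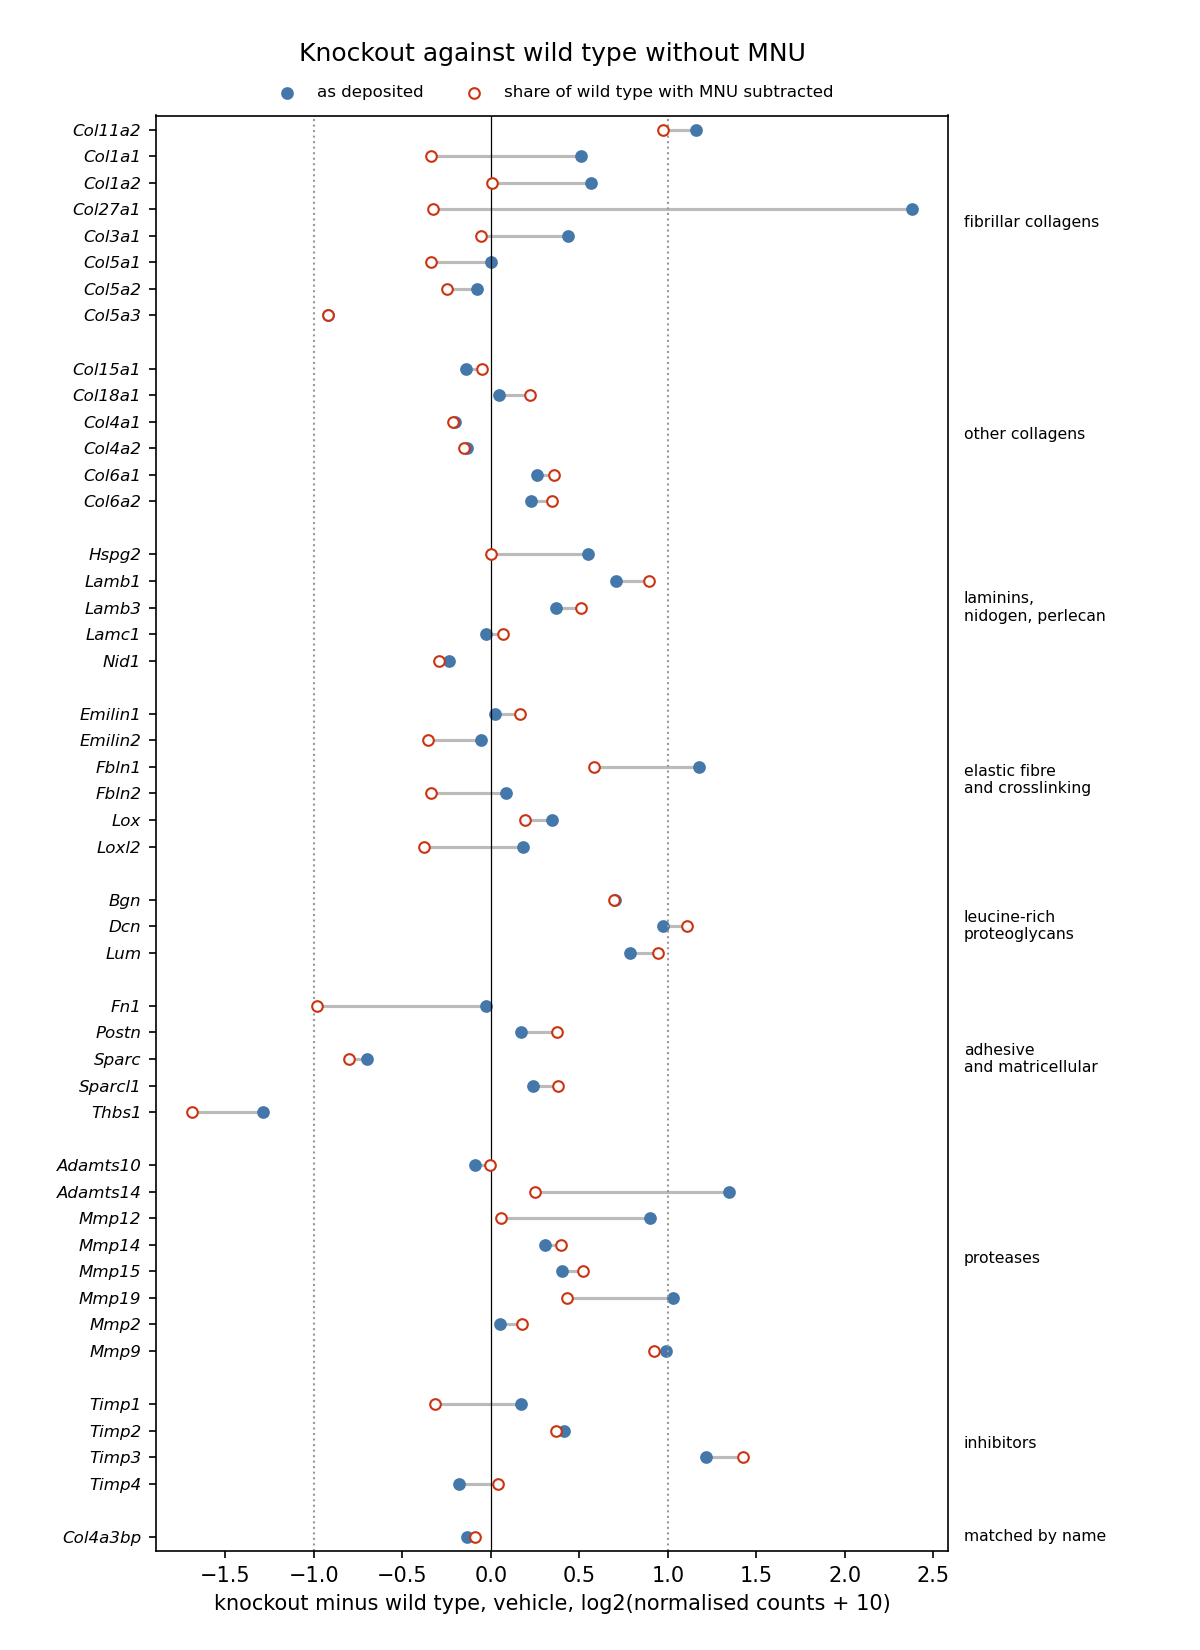
Difference between knockout and wild type with vehicle on the log2(normalised counts + 10) scale for 46 of the 47 members, as deposited (filled) and with the 15.4% share of wild type with MNU subtracted from the knockout library (open), with dotted lines at 2-fold. Col27a1, Adamts14, Mmp19 and Fbln1 move from above 2-fold to within it, whereas Timp3 stays above and Thbs1 stays below.

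With MNU in both genotypes, the knockout thymus held less fibrillar collagen, perlecan and fibronectin transcript and more Postn transcript than the wild-type thymus. Of 47 members 21 were lower in knockout, against 7.37% of all genes, and 8 were higher, against 15% of all genes. The median log2 difference was -0.67, beside 0.01 over all genes. This comparison shares the wild-type MNU library with that of MNU in wild type and the knockout MNU library with that of MNU in knockout, and is not separate evidence. Lower by the most were Col27a1 (31.6-fold), Thbs1 (12.7-fold), Adamts14 (8.21-fold) and Fn1 (8.06-fold), followed by Col1a1 (7.11-fold). Among the higher members was Postn (5.55-fold). Sparc, Col5a3, Emilin2, Lox and Thbs1 were lower at 2-fold in this comparison without having been higher with MNU in wild type, and Lum was higher (2.19-fold).

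Across the 4 libraries as deposited, knockout with MNU was the lowest for 20 of 47 members, or 42.6%, against 21.7% of all genes. It was the highest for 2, Emilin1 and Adamts10, against 24.3% of all genes. Wild type with MNU was the highest for 22 members, against 44.4% of all genes, and the lowest for 20, against 43.3% of all genes, so that both shares were near the background. Wild type with vehicle was the highest for 9, against 20.3% of all genes, and the lowest for 7, against 19.9%. The difference of the MNU differences, knockout minus wild type, was -2 or less on the log2 scale for 16 members, against 3.64% of all genes, and 2 or more for 2 members, Postn among them, against 6.62% of all genes. With the share subtracted it was -2 or less for 12 members, against 2.96% of all genes. It was 2 or more for the same 2, against 5.88% of all genes. Emilin2 (-1.84), Loxl2 (-1.70), Mmp9 (-1.998) and Thbs1 (-1.92) then fell short of -2 but stayed near it, while Col11a2, at -2.03, was just past it.

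Genes that act on collagen or receive its signals were described from lists of related genes. Of all genes, 7.14% were higher and 14.2% lower with MNU in wild type, and 0.331% higher and 2.95% lower in knockout. With the share subtracted, 0.397% of all genes were higher and 1.87% lower in knockout. Of 15 measured collagen-processing enzymes 1 was higher and 3 lower with MNU in wild type and none passed 2-fold in knockout. In wild type these enzyme counts were close to the shares of all genes. The summed levels of the enzymes were 27765, 29411, 30937 and 29208. Fkbp10, a chaperone of procollagen, was the higher one, at 237, 672, 369 and 206. P4ha3, a prolyl hydroxylase subunit, stood at 421, 22.2, 633 and 387. Serpinh1, the collagen chaperone HSP47, stood at 2139.9, 859.7, 2102 and 1408, and Sec23a, a subunit of the vesicle coat that exports procollagen, at 1692, 725, 1413 and 1519. These 3 were the lower ones, each lowest in wild type with MNU. Plod1, at 820.1, 1521, 1093 and 948, and Bmp1, the protease that removes the C-terminal propeptide, at 536, 821, 753 and 466, were highest in wild type with MNU within 2-fold. Serpinh1 was therefore lowest in the library in which Col1a1, Col1a2 and Col3a1 were highest.

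Of 19 matrix receptors 3 were higher and 6 lower with MNU in wild type, and 1, Cd36, was lower with MNU in knockout. Itga9, an integrin chain that binds tenascin and fibronectin, stood at 427, 4437, 1229.9 and 844. Cd44, the hyaluronan receptor, stood at 1642, 3977, 2349 and 2135 and Sdc1, syndecan-1, at 1078, 2383, 2125 and 1482, and all 3 were highest in wild type with MNU. Itga3 (654, 131, 969.6 and 619), which pairs with Itgb1 to bind laminins, and Bcam (943, 130.0, 1182 and 1048), a laminin receptor, were lowest there.

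Of 21 other matrix genes 5 were higher and 8 lower with MNU in wild type. Ctgf, Cyr61 and Ogn (499, 175, 639 and 295) were the 3 lower ones in knockout as deposited, and 4 were lower with the share subtracted. Tnc, tenascin-C, stood at 5522, 324, 3992 and 4068. Prelp stood at 2814, 275, 1606 and 1340.2 and Spock2 at 1497, 198, 1560.1 and 935, and all 3 were lowest in wild type with MNU. Efemp2, a fibulin needed for elastic fibres, stood at 155, 677, 369.6 and 227. Ecm1 stood at 712, 2359, 984 and 755 and Igfbp3 at 440.3, 1328, 839 and 490.3, and these 3 were highest there. Of 16 other proteases, their receptors and inhibitors 6 were higher and 2 lower with MNU in wild type. As deposited, 3 were lower in knockout, among them Plaur and Adam19. With the share subtracted 1 was lower, and Plaur and Adam19 lay within 2-fold, at -0.61 and -0.32 on the log2 scale. Adam19, a membrane-bound metalloprotease, stood at 1132, 11516, 3329.6 and 1478 and its relative Adam12 at 2163, 7531, 1957 and 1024. Plaur, the urokinase receptor, stood at 175, 983, 307 and 118, and all 3 were highest in wild type with MNU. Plau, urokinase itself, stood at 835, 216, 903 and 783, and Serpine2, an inhibitor of serine proteases, at 1491, 176, 1645 and 1821, both lowest in wild type with MNU, as was Hyal2 within 2-fold, at 536, 359, 538 and 568. The receptor and its ligand urokinase thus differed in opposite directions with MNU in wild type. Of 13 TGF-beta genes none was higher and 2 were lower in wild type, the repressors Skil, at 2213, 526, 2060.4 and 2542, and Tgif1, at 1643, 292, 956 and 952. Smad3, a transducer of the pathway, was lowest there within 2-fold, at 3179, 1639.6, 2854 and 3109, and Tgfbr3, at 1985, 2512, 1918 and 1649.7, had the largest difference upward. In knockout 2 of the 13 were lower with MNU, Ctgf among them.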

How the data were processed

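The deposited table held a signal per gene and library, called normalised counts per the file headers, for 4 libraries. Values were never negative and not whole, with the authors' normalisation, counting tool, annotation and filter not given in the sources used here. TopHat2 2.0.8b, edgeR and the build mm9 are named per the submitters' processing notes. Since depth before normalisation is unknown and each group had 1 library, no count model, interval or test was used.

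The values were taken as scaled, 10 was added, the log2 was taken (Python 3.11.15, pandas 2.3.3, numpy 2.4.6), and genes averaging 10 or more over the 4 libraries were kept. The error of the 2-fold rule and of the share subtraction was not tested on these data, since each group had 1 library. The share was the median over non-member genes above 1000 units in wild type with MNU and over 20 times their level in both other libraries. It was subtracted from knockout with vehicle, the rest was rescaled, and values below 0 were set to 0. Members and the 16 lists were chosen with earlier results of these data known. Genes named from lists of related genes had the 3 largest differences each way with MNU in wild type, the higher library reaching 100. Others (Krt5, Foxn1, Epcam, Cldn4, Pdgfrb, Gsn, Kcnj8, Myh11, Ctgf, Cyr61, Tgfbi, Ogn, Cd36, Lep) were chosen after their values were seen. Among these, Krt5, Pdgfrb, Gsn, Kcnj8, Myh11, Ctgf and Lep also met that rule within a list, but not every marker meeting it is named. Alternatives were pseudocounts of 2.5 and 40, no filter or a mean of 100, median-of-ratios or upper-quartile scaling, a 4-fold threshold, the subtracted share and exchanged control libraries. Of the members 1, and of the list genes 1, are not reported here by name or value, but stay in the counts, medians and sums. Exon lengths were unions over the GENCODE M21 basic annotation, and promoter windows are RefSeq's. The single mesothelial marker measured of 5 listed, Msln, stood at 353, 428, 1126 and 1186, and the single Schwann cell marker of 6, Mbp, at 4995, 4656, 5012 and 5727.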

Additional observations from a re-analysis of the deposited data

Results flagged for a closer look

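For 7 of 47 members, against 1.87% of all genes, the difference with MNU passed 2-fold in opposite directions in the 2 genotypes, higher in wild type and lower in knockout. With 1 library per group the difference between genotypes was not tested. Given as knockout minus wild type on the log2 scale, it was -7.34 for Col27a1, -3.86 for Fbln1, -3.66 for Mmp19, -3.33 for Col1a1, -3.21 for Hspg2, -2.97 for Fn1 and -2.70 for Timp1. With the share of wild type with MNU subtracted from knockout with vehicle, 0 of the 7 passed 2-fold in knockout, where their log2 differences ran from -0.67 for Timp1 to 0.24 for Col27a1. For these genes the subtraction could only lower the knockout vehicle level, so that the direction of this shift was fixed beforehand. The direction in wild type does not use knockout with vehicle.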

How the results depend on the processing

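Counts over the members stayed within 1.5 times under both pseudocounts, both filters and both scalings, which moved the members' medians and the median of all genes by under 0.1 on the log2 scale. With a 4-fold threshold, 8 members were higher and 3 lower with MNU in wild type, and 0 were higher and 2 lower with MNU in knockout. Knockout against wild type had 1 higher and 0 lower with vehicle, and 2 higher and 14 lower with MNU. The MNU differences of the genotypes differed by 3 or more on the log2 scale for 7 members. Shares of all genes were not counted at these thresholds, so that these counts show only the dependence on the threshold. With the share subtracted, 4 were lower with MNU in knockout and 2 higher in knockout with vehicle, and Col27a1 turned from -2.46 to 0.24 and from 2.38 to -0.33 in those comparisons. With wild type with vehicle as the control, 6 were lower in knockout with MNU, and with knockout with MNU in place of knockout with vehicle, 0 were higher and 6 lower against wild type with vehicle. Of the 71 single-gene differences past 2-fold, 71 stayed past it under each scaling and under the smaller pseudocount and 69 under the larger one. Leaving out a replicate was not possible with 1 library per group. No paired analysis was possible because each group held 1 library. Since depth before normalisation is unknown, no error can be given for low values such as Timp4 in wild type with MNU.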
